A study of Mus musculus with 6 samples.

Results

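The 39 Hox genes of the mouse lie in 4 clusters, and their DPPA4 peaks are described here in mouse embryonic stem cells (ESCs) and in 2-cell-like cells. The members were all protein-coding genes of the GENCODE vM21 annotation (mm10) whose symbol is Hoxa, Hoxb, Hoxc or Hoxd followed by a number, out of 21938 protein-coding genes on chromosomes 1 to 19, X and Y. A cluster was taken from its first to its last gene with 20 kb on either side. The cells were a BL6/129 hybrid ESC line named EHMT2-dTAG-mcherry-mervl-gfp, in which the histone methyltransferase EHMT2 carries a dTAG degradation tag and GFP is driven by the MERVL retroviral promoter. All groups used here had received dTAG for 72 h, which triggers degradation of the tagged EHMT2, so no comparison with untreated cells was made, and peak lists cannot check the depletion or the cell type. Live cells were sorted into GFP-negative cells, which stand for ESCs, and GFP-positive cells, which stand for 2-cell-like cells, a rare state with active MERVL elements. CUT&RUN, in which an antibody directs a nuclease to the chromatin a protein occupies, was run with an antibody against DPPA4 on 2 libraries of each population. The other 2 of the 6 samples were IgG libraries, of GFP-negative and of bulk cells, and are not used here. Peaks came as 1 list per population, pooled by the authors over its 2 libraries, so no spread between replicates could be computed and no test was run. All intervals below are 95% Wilson intervals that cover counting error only, and neighbouring genes of a cluster are not independent.

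Hox genes encode homeodomain transcription factors that give cells their position along the head-to-tail axis. Genes of paralog group 1 lie at one end of a cluster and act towards the head, and those of group 13 lie at the other end and act towards the tail and the tips of the limbs. In ESCs the clusters are textbook targets of Polycomb repression and carry both activating and repressive histone marks at CpG-rich promoters. DPPA4 is a SAP-domain protein that works as a heterodimer with DPPA2 in pluripotent cells and early embryos and is known to occupy CpG-rich promoters, many of them of developmental genes. Here genes of paralog groups 1 to 3 are called anterior, those of groups 4 to 8 central and those of groups 9 to 13 posterior.

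The sequences the results turn on are given first, with each CpG dinucleotide in capitals. CG reads the same on both strands, and it is a description of base composition, not a binding site of DPPA4. Of the Hox genes, 22 matched the RefSeq promoter table (GRCm38.p6, from 250 bases before to 50 after the start), and their 24 promoters held a median of 14.5 CpGs against 7 over all 32851 promoters of the table. At least 1 CG was present in all 24 Hox promoters and in 94.6% of all promoters. The promoters shown belong to Hoxd12, which held the strongest GFP-positive peak of its cluster (chr2:74674763-74675062, plus strand, 13 CpGs), Hoxb4, with a peak in both lists (chr11:96318017-96318316, plus strand, 14 CpGs), and Hoxa13, with a peak in the GFP-negative list alone (chr6:52260831-52261130, minus strand, 45 CpGs). As many CpGs or more were found in 37.9%, 36.3% and 1.93% of the table's promoters.
Hoxd12 promoter: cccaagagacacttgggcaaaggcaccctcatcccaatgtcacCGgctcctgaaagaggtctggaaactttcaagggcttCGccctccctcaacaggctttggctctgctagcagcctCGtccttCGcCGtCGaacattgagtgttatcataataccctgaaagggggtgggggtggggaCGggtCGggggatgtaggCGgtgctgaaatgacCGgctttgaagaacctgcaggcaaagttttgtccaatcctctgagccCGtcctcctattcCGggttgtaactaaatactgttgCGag
Hoxb4 promoter: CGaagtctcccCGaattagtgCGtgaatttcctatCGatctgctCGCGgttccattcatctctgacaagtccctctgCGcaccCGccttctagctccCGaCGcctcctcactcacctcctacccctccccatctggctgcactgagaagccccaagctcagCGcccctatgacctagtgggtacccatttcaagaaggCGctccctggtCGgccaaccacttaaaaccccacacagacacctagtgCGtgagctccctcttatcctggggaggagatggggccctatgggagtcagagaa
Hoxa13 promoter: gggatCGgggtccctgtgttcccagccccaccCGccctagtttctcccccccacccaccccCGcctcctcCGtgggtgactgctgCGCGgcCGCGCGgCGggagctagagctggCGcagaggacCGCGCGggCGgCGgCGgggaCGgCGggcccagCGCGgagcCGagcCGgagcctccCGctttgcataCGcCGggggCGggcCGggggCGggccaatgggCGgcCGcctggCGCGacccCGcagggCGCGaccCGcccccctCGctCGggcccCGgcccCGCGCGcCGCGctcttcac

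The next 4 sequences are windows of 121 bases centred on the summit of regions outside Hox promoters, on the plus strand of mm10. They are the strongest region shared by both lists (Hoxb5 to Hoxb4 spacer, chr11:96311764-96311884, 5 CpGs), the strongest shared region of the Hoxa cluster (Hoxa2 to Hoxa3 spacer, chr6:52168668-52168788, 12 CpGs), the strongest GFP-negative-specific one (in the body of Hoxa3, chr6:52177485-52177605, 10 CpGs) and the strongest GFP-positive-specific one (in the body of Evx2, chr2:74655584-74655704, 16 CpGs). Regions whose summit lay in a promoter missing from the RefSeq table were passed over in this choice. Over all 99695 merged regions of the genome the same window held a median of 3 CpGs, and 14.2% of regions held none. At least as many CpGs as in these windows were found in 31.2%, 5.40%, 9.08% and 1.86% of all regions.
Hoxb5-Hoxb4 spacer: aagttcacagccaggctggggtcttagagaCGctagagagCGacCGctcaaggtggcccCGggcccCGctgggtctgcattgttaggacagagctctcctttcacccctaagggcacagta
Hoxa2-Hoxa3 spacer: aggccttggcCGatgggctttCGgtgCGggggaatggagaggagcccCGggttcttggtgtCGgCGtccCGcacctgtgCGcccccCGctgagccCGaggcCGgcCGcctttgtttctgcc
Hoxa3 body: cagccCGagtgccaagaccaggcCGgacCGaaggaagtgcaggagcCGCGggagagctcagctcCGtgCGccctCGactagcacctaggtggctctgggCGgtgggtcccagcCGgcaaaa
Evx2 body: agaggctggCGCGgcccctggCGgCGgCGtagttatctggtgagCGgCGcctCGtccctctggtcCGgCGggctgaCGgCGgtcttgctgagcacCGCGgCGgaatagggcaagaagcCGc

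DPPA4 peaks were dense over the Hox clusters against the genome as a whole, but mostly modest within their lists. The 4 spans, 651.8 kb in all, held 108 of the 83602 GFP-negative peaks and 72 of the 54642 GFP-positive peaks. That is 16.6 and 11.05 peaks per 100 kb, 5.40 and 5.51 times the density over the assembled chromosomes. The spans were also denser in genes, with 39 Hox genes in 651.8 kb against 21938 protein-coding genes in 2725521 kb. The comparison was not matched for gene density. GFP-negative peaks covered 14.7% and GFP-positive peaks 11.1% of the bases of the spans, against 2.53% and 2.10% of the genome. How many reads stand behind a list is unknown, and more reads give more peaks from equal occupancy, so a difference in number between the lists cannot be told apart from depth.

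The fold enrichment of a peak, the authors' ratio of summit signal to the local background of the peak caller, had a median of 3.97 over the Hox peaks of the GFP-negative list and 4.27 over that whole list. In the GFP-positive list the medians were 4.10 and 4.13. The −log10 q, the authors' significance of the summit after correction for the number of positions, reached 5 in 30 of the 108 Hox peaks (27.8%) and in 41.6% of all GFP-negative peaks. It reached 5 in 14 of the 72 Hox peaks (19.4%) and in 37.7% of all GFP-positive peaks. No Hox peak was among the top 10% of either list by −log10 q. The highest of the GFP-negative list stood at percentile 89.7, in the Hoxb cluster.

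**Figure D1:**
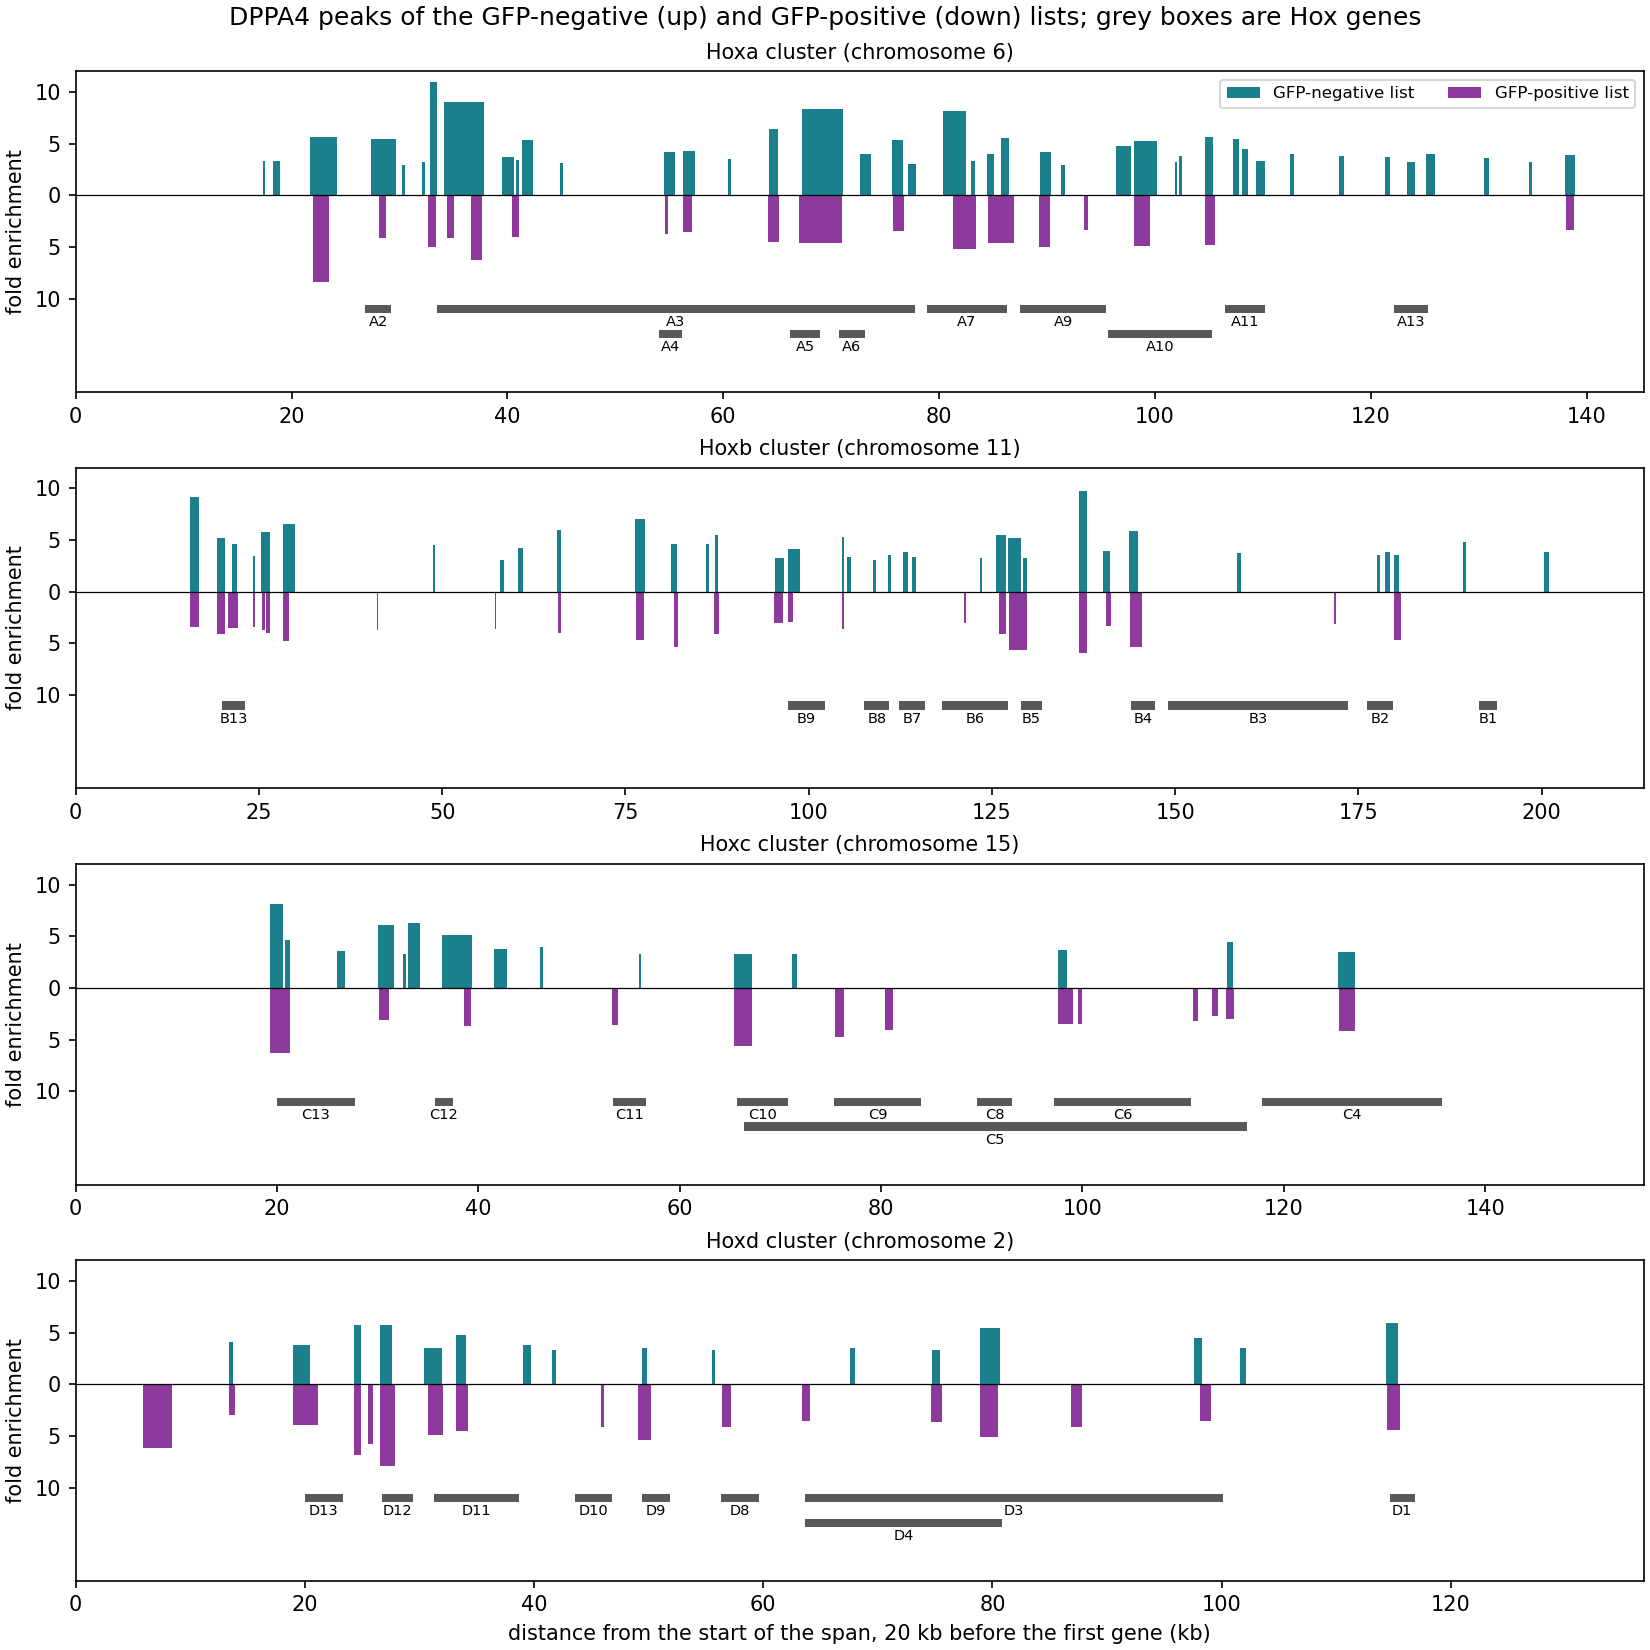
DPPA4 peaks over the 4 Hox clusters, with the distance from the start of each span in kb on the x axis and fold enrichment on the y axis, upward for the GFP-negative list and downward for the GFP-positive list; bar widths are peak widths and grey boxes are 38 Hox genes, labelled by cluster letter and paralog number. The Hoxa cluster holds 42 GFP-negative and 18 GFP-positive peaks, and over A11 and A13 its bars point upward only.

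The clusters differed in how the lists shared them. Hoxa (chromosome 6, 52135590 to 52280880 with flanks) held 42 GFP-negative and 18 GFP-positive peaks, a ratio of 2.33 against 1.53 for the whole lists. Hoxb (chromosome 11, 96174316 to 96388256) held 35 and 24 peaks, a ratio of 1.46. Hoxc (chromosome 15, 102901103 to 103056852) held 15 and 13 peaks, a ratio of 1.15. Hoxd (chromosome 2, 74648310 to 74785142) was the single cluster with more peaks in the shorter GFP-positive list, 17 against 16, a ratio of 0.941. The bases covered went the same way, from 27.2% and 14.8% in Hoxa to 9.33% and 13.6% in Hoxd.

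Against all 27247 tiles of 100 kb of the genome, the GFP-negative density over Hoxa, 28.9 peaks per 100 kb, was matched or passed by 0.543% of tiles. For Hoxb, Hoxd and Hoxc the share of tiles was 3.60%, 6.79% and 8.85%. In the GFP-positive list Hoxa and Hoxd were both matched or passed by 2.61% of tiles, Hoxb by 3.14% and Hoxc by 5.41%. The order of the clusters was therefore not the same in the lists, with Hoxa densest in GFP-negative cells and Hoxa and Hoxd level in GFP-positive cells, at 12.4 peaks per 100 kb each.

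A promoter was counted as bound when a peak touched the window reaching 2.5 kb before and 0.5 kb past any of the gene's annotated starts. In the GFP-negative list 34 of 39 Hox promoters were bound (87.2%, interval 73.3 to 94.4), against 70% of all protein-coding genes. In the GFP-positive list 24 were bound (61.5%, interval 45.9 to 75.1), against 61.9%. Both lists had a peak at 22 Hox promoters (56.4%, background 59.9%) and neither list at 3 (7.69%, background 28%). A peak in the GFP-negative list alone was found at 12 (30.8%, interval 18.6 to 46.4). A peak in the GFP-positive list alone was found at 2 (5.13%, interval 1.42 to 16.9). As background for these single-list counts, 15360 of all 21938 protein-coding genes had a GFP-negative peak, 13581 a GFP-positive one and 13145 both. In each list, all bound genes but those 13145 had a peak in that list alone. Among CpG-rich promoters alone the Hox share lay below the background in both lists. The 14 Hox promoters that were not CpG-rich, 12 bound in GFP-negative and 7 in GFP-positive cells, were not compared with genes of like sequence. Of the 25 Hox promoters that were CpG-rich, 22 were bound in GFP-negative cells (88.0%, interval 70.0 to 95.8) and 17 in GFP-positive cells (68.0%, interval 48.4 to 82.8). Among all CpG-rich promoters the shares were 98.3% and 92.4%, each above the upper bound of the matching Hox interval.

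The peaks at Hox promoters were also of lower significance than at other genes. With genes lacking a peak set to 0, the median of the highest −log10 q per promoter was 3.04 over the Hox genes, 8.30 over all genes and 19.4 over all CpG-rich genes in the GFP-negative list. In the GFP-positive list the medians were 2.72, 3.56 and 10.3. A −log10 q of at least 5 was reached at 35.9% of Hox promoters and 58.3% of all promoters in the GFP-negative list. In the GFP-positive list the shares were 23.1% and 45.1%. A peak with a −log10 q of at least 5 was found at 9 of the 25 CpG-rich Hox promoters (36.0%) and at 89.4% of all CpG-rich promoters in GFP-negative cells. In GFP-positive cells it was found at 5 (20%) and at 74.6%. Of the 14 Hox promoters that were not CpG-rich, 5 (35.7%) had a GFP-negative peak of that significance and 4 (28.6%) a GFP-positive one. The share over all promoters that are not CpG-rich was not computed, so these 14 cannot be called low for their kind.

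**Figure D2:**
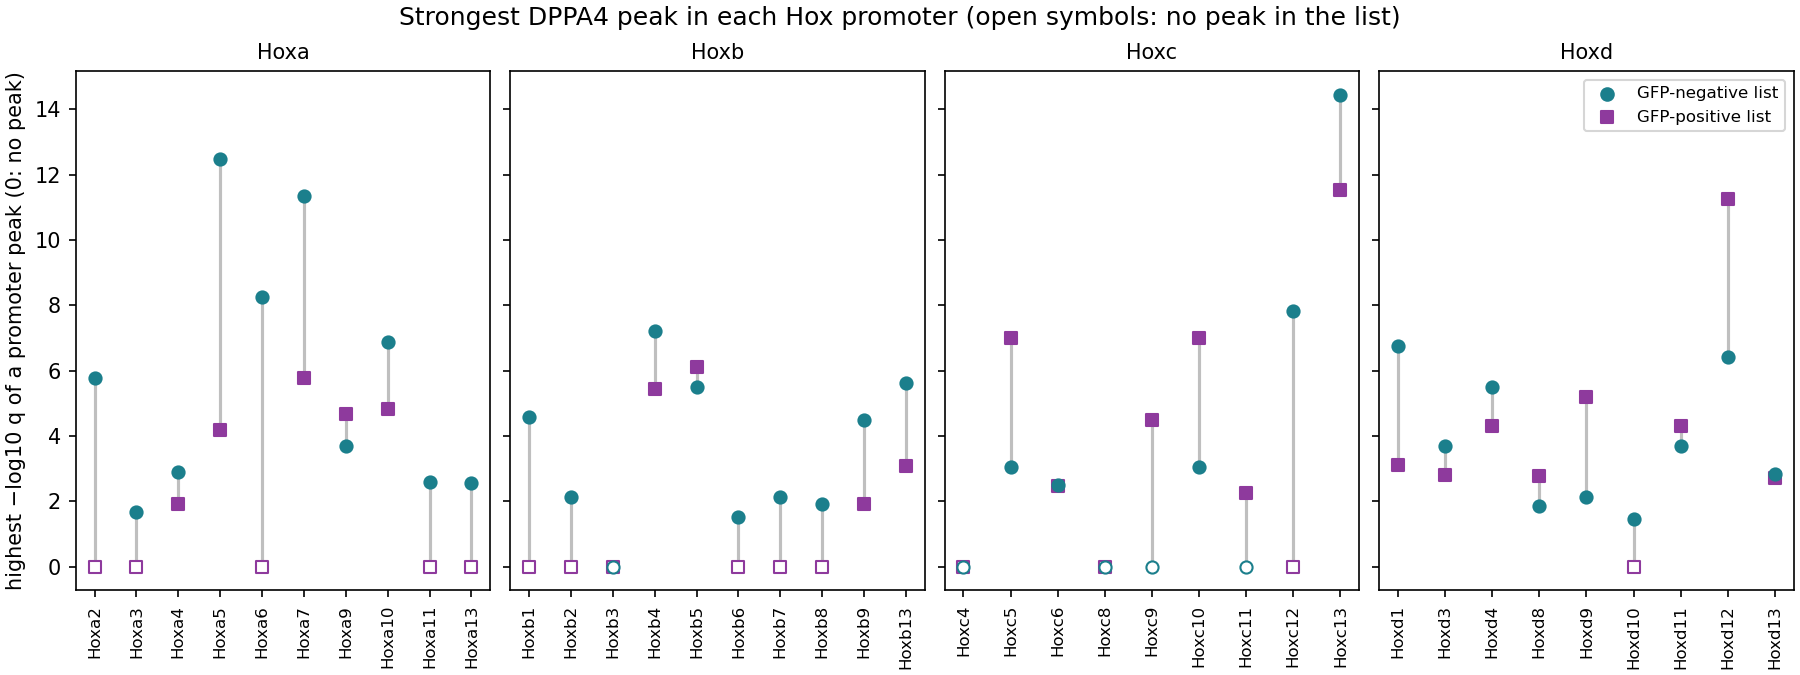
Highest −log10 q of a DPPA4 peak touching the promoter of 38 Hox genes (y axis), by cluster and in paralog order (x axis), with circles for the GFP-negative list, squares for the GFP-positive list and open symbols at 0 where the list has no peak. Hoxc13 has the highest value drawn in either list, 14.4 for the GFP-negative and 11.5 for the GFP-positive list.

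By position along the clusters, the GFP-negative list had a peak at 7 of 8 anterior, 13 of 15 central and 14 of 16 posterior promoters. The GFP-positive list had one at 3 of 8 anterior (37.5%, interval 13.7 to 69.4), 9 of 15 central (60%, interval 35.7 to 80.2) and 12 of 16 posterior promoters (75.0%, interval 50.5 to 89.8). Pooled over the clusters, the shares of the GFP-positive list stood in the order of the genes, and the intervals overlapped. The order held in Hoxb (0 of 3, 2 of 5, 2 of 2) and in Hoxc, which has no anterior gene (2 of 4, 4 of 5). It was absent in Hoxa (1 of 3, 3 of 4, 2 of 4) and Hoxd (2 of 2, 2 of 2, 4 of 5). With a −log10 q of at least 5 the pooled counts were 1 of 8, 4 of 15 and 4 of 16. In paralog group 2 both genes had a GFP-negative and neither a GFP-positive promoter peak. All 3 genes of group 5 had a promoter peak in both lists. For Hoxc5 the GFP-negative one was the peak of the Hoxc10 promoter, at a distal start, and its principal start had a GFP-positive peak alone. In group 9 a promoter peak was present for 3 of 4 genes in the GFP-negative and for 4 of 4 in the GFP-positive list.

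In the Hoxa cluster all 11 promoters had a GFP-negative peak and 6 had a GFP-positive one. Hoxa5, which acts in lung and axial development, had a −log10 q of 12.5 for the GFP-negative list, in a peak of 3779 bp, and of 4.18 for the GFP-positive list, in a peak of 3985 bp. Hoxa7 had 11.4 and 5.78, and Hoxa10, a gene of the uterus and lumbar spine, had 6.87 and 4.82. Hoxa4 had weak peaks in both lists, 2.89 and 1.93. These 4 genes ranked lower in the GFP-positive than in the GFP-negative list. Hoxa9 went the other way, with 3.71 at percentile 49.5 of the GFP-negative list and 4.67 at percentile 60.4 of the GFP-positive list. Those values came from different peaks. At the site of the 4.67 the GFP-negative list had 3.66 at percentile 48.6, and at that of the 3.71 the GFP-positive list had no peak.

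At 5 Hoxa genes the promoter peak was in the GFP-negative list alone. Hoxa6 had a −log10 q of 8.27 from a peak that reached the far edge of its promoter window, and 3.21 from the peak over its start. Hoxa2, which patterns the second pharyngeal arch, had 5.79, from a peak whose summit lay inside the gene. A GFP-positive peak in that gene had its summit 789 bp downstream of the start and did not touch the promoter window. The other 3 were weaker. Hoxa11, which shapes the forearm and lower leg, had 2.61, Hoxa13, which shapes the digits and the urogenital tract, had 2.55, and Hoxa3, a gene of thymus and parathyroid development, had 1.68. At Hoxa13 the GFP-negative summit lay 111 bp upstream of the start, inside the printed promoter, and the nearest GFP-positive summit was 13449 bp away.

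The posterior end of Hoxa, chosen for description after its values were seen, held no GFP-positive peak over 32.5 kb (chr6:52241197-52273656), a stretch that contains Hoxa11, Hoxa13 and the start of the long non-coding RNA gene Hottip. The GFP-negative list had 10 peaks there, with a −log10 q of 1.43 to 5.49 and a fold enrichment of 3.22 to 5.46. A single one of the 10 reached a −log10 q of 5. Peaks this close to the lowest values of a list can be missed in a list with fewer reads.

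In the Hoxb cluster 9 of 10 promoters had a GFP-negative and 4 a GFP-positive peak. The 3 strongest were the same genes in both lists. Hoxb4, known for expanding blood stem cells, had a −log10 q of 7.22 and 5.43 in the GFP-negative and GFP-positive list. Hoxb13, a gene of the tail and prostate, had 5.61 and 3.07. Hoxb5 had 5.49 and 6.12 and was the one of the 3 whose highest value ranked higher in the GFP-positive list, at percentile 67.8 against 61.2. These values came from different peaks. At the site of the 5.49 the GFP-positive list had 2.66 at percentile 40.6. At the site of the 6.12 the GFP-negative list had 4.57 at percentile 56.1. Hoxb9 had 4.49 and 1.93, also from different peaks. A peak in the GFP-negative list alone was found at Hoxb1, which sets the identity of a hindbrain segment (4.57), at Hoxb2 and Hoxb7 (2.14 each), at Hoxb8 (1.93) and at Hoxb6 (1.52). These 5 genes include a run of 3 neighbours, Hoxb6 to Hoxb8, without a GFP-positive promoter peak. Hoxb3 had no promoter peak in either list, and the nearest summits were 8398 bp and 2473 bp from its principal start.

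In the Hoxc cluster 5 of 9 promoters had a GFP-negative and 6 a GFP-positive peak, so this cluster had the fewest GFP-negative promoter peaks. Hoxc13, which is needed for hair and nails, had a −log10 q of 14.4 (percentile 82.5) in the GFP-negative list and 11.5 (percentile 82.1) in the GFP-positive list. Hoxc10 had 3.04 and 7.0 from a peak that also touched a distal start of Hoxc5, so those genes share these values. Hoxc6 had 2.51 and 2.48, from starts other than its principal one. Hoxc12 had a peak in the GFP-negative list alone, with 7.84, the strongest region of the 4 clusters without a GFP-positive peak. Both promoters bound in the GFP-positive list alone were here. Hoxc9 had 4.49, with the summit 11 bp from its principal start, and Hoxc11 had 2.27, with the summit 273 bp downstream. Hoxc4 and Hoxc8, the latter a gene of the thoracic skeleton, had no promoter peak in either list.

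In the Hoxd cluster 9 of 9 promoters had a GFP-negative and 8 a GFP-positive peak. Hoxd1 was strongest in the GFP-negative list with a −log10 q of 6.76 and had 3.13 in the GFP-positive list. Hoxd12, one of the genes of the limb and digits, had 6.43 and 11.3, from different peaks. At the site of the 6.43 the GFP-positive list had 9.34, and at that of the 11.3 the GFP-negative list had 5.49. Hoxd9 had 2.14 and 5.19. Hoxd4 had 5.49 and 4.30, and Hoxd11 3.71 and 4.30, the latter pair from different peaks. Hoxd3 had 3.71 and 2.80, from different peaks and in neither case at its principal start. Hoxd13, a gene of the digits, had 2.84 and 2.72. Hoxd10 was the one gene of this cluster with a peak in the GFP-negative list alone, with 1.45, near the lowest value of the list. Hoxd8 counted for both lists, but through peaks that did not overlap, with summits 628 bp upstream and 751 bp downstream of its start.

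From the Hoxd12 promoter to Hoxd9, a stretch chosen after its values were seen, all 5 regions common to both lists had a higher percentile in the GFP-positive list, by 1.69 to 37.5 points. The stretch also held GFP-negative-specific regions (−log10 q of 2.14 and 1.45) and GFP-positive-specific ones (5.81 and 2.66). The region over the start and body of Hoxd12 (chr2:74674863-74676177), which covers the end of the printed promoter, stood at percentile 61.2 of the GFP-negative and 81.4 of the GFP-positive list. The one at Hoxd9 (chr2:74697371-74698492) stood at 26.4 and 63.8.

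Merging peaks that overlapped by 1 bp or more, within and between lists, gave 120 regions in the 4 spans. Of these, 53 were common to both lists (44.2%, interval 35.6 to 53.1), against 35% of all 99695 regions of the genome. GFP-negative-specific regions numbered 50 (41.7%, interval 33.2 to 50.6, genome 46.7%) and GFP-positive-specific ones 17 (14.2%, interval 9.04 to 21.5, genome 18.4%). In this order Hoxa had 16, 23 and 1 regions of these classes and Hoxb 19, 15 and 4. Hoxc had 7, 7 and 6, and Hoxd 11, 5 and 6. The share that was GFP-positive-specific was 2.5% in Hoxa (interval 0.443 to 12.9) and 27.3% in Hoxd (interval 13.2 to 48.2). These shares rest on 1 of 40 and 6 of 22 regions, and a difference between clusters was not tested.

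By the higher of its values in either list, the strongest common region of Hoxb lay in the spacer between Hoxb5 and Hoxb4 (chr11:96311183-96312360), with a GFP-negative −log10 q of 23.5, the highest of all Hox peaks of that list, and a GFP-positive one of 9.65. In Hoxa it lay between Hoxa2 and Hoxa3 (chr6:52168237-52169063), at the promoter of the antisense gene Hoxaas2, with 19.7 and 4.26. In Hoxc it was the Hoxc13 promoter in both lists. In Hoxd the strongest common region of the GFP-positive list was the Hoxd12 region given above (11.3), and that of the GFP-negative list was the Hoxd1 promoter (6.76). A region upstream of Hoxb13 (chr11:96189900-96191181), singled out after its values were seen, had 22.4 and 3.50. The strongest regions of the GFP-negative list in Hoxa and Hoxb were therefore outside Hox promoters.

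The strongest GFP-negative-specific region was in Hoxa a site in the body of Hoxa3 (chr6:52176948-52177953), at the promoter of the annotated gene 5730596B20Rik, with a −log10 q of 5.60. In Hoxb it was the Hoxb1 promoter (4.57), in Hoxc the Hoxc12 promoter (7.84) and in Hoxd a site in Hoxd3 and Hoxd4 at the promoter of Hoxd3os1 (3.62). The strongest GFP-positive-specific region of all lay in the flank of Hoxd inside Evx2, a homeobox gene next to the cluster (chr2:74654222-74656731, 2510 bp), with a −log10 q of 7.09 at percentile 71.5 of its list. Hoxc followed with the Hoxc9 promoter (4.49), Hoxb with a site between Hoxb13 and Hoxb9 (2.46) and Hoxa with a site in Hoxa9 (1.48).

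**Figure D3:**
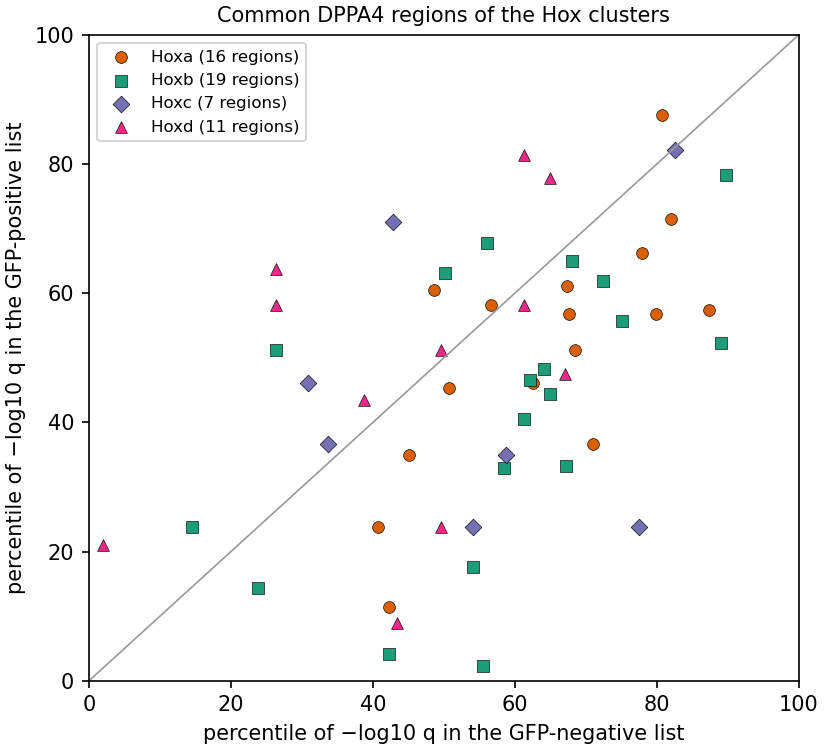
Percentile of the −log10 q of the 53 common regions in the GFP-negative list (x axis) and the GFP-positive list (y axis), with 1 point per region and clusters by colour and shape; the line marks equal percentiles. In Hoxa 3 of 16 regions and in Hoxd 7 of 11 lie above the line.

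Within common regions, the rank in the GFP-positive list was above that in the GFP-negative list for 3 of 16 regions in Hoxa, 4 of 19 in Hoxb, 3 of 7 in Hoxc and 7 of 11 in Hoxd. Over the 4 clusters this was 17 of 53 (32.1%), against 33.3% of all common regions of the genome. The median GFP-negative percentile of the Hox regions was 58.7 and the median GFP-positive percentile 48.2, below the 74.7 and 64.8 of all common regions.

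Each base between the first and the last gene was counted as Hox promoter, else as Hox gene body, else as spacer. Peaks covered 21.6% of promoter, 18.1% of gene body and 13.3% of spacer bases in the GFP-negative list, and 4.98% of the flanks. In the GFP-positive list the shares were 19.1%, 12.8%, 7.06% and 4.64%. Summits lay in Hox promoters for 40 of 108 GFP-negative peaks (37.0%, interval 28.5 to 46.4) and for 31 of 72 GFP-positive peaks (43.1%, interval 32.3 to 54.6). The clusters again differed. Hoxa promoters and gene bodies were covered alike in GFP-negative cells, 36.9% and 37.1%. In Hoxc the GFP-negative list covered spacers most, 21.3%, with 5 summits that all lay between Hoxc13 and Hoxc11, and the GFP-positive list covered promoters most, 17.5%. In Hoxd no GFP-positive summit lay in a spacer, of 17, and 11 lay in promoters.

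**Figure D4:**
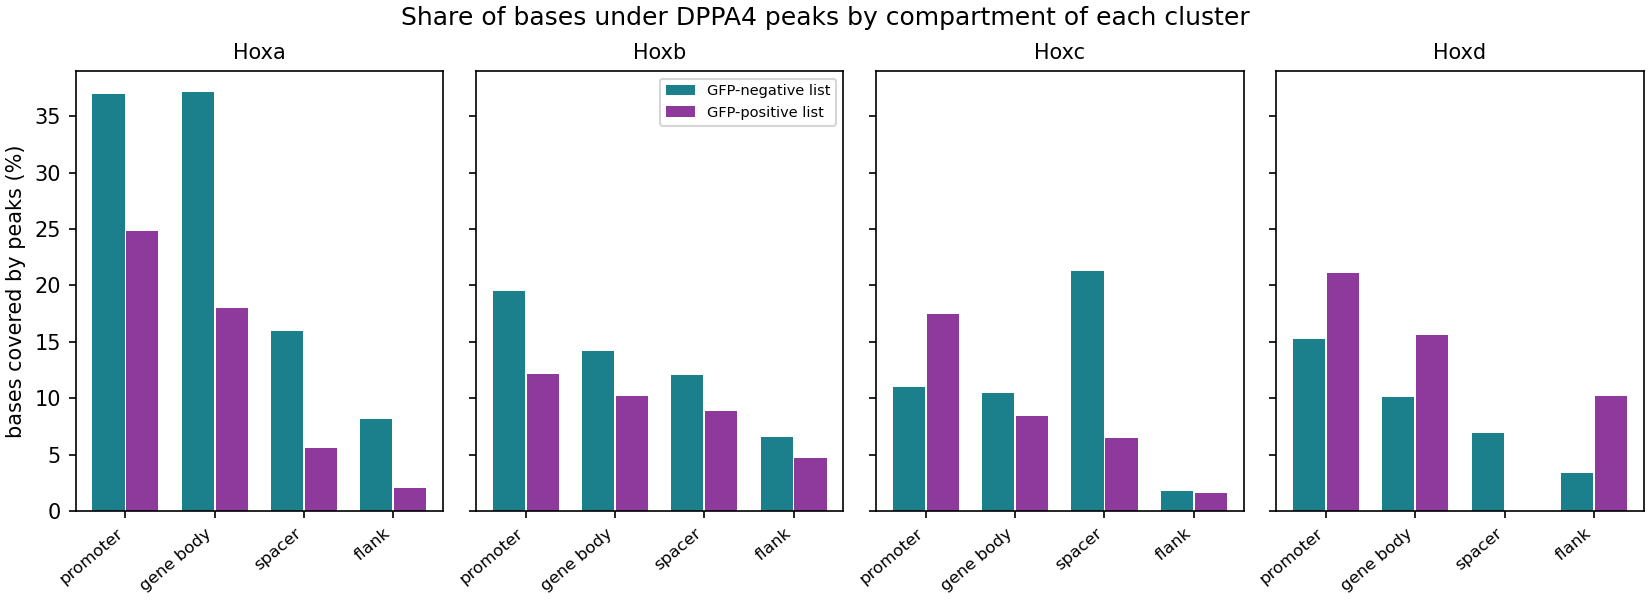
Percent of bases under DPPA4 peaks (y axis) in promoters, gene bodies, spacers and 20 kb flanks (x axis) of each cluster, with bars for the GFP-negative and GFP-positive lists. Hoxa promoters reach 36.9% and 24.8%, and Hoxd is the cluster whose promoters, gene bodies and flanks are all covered more in the GFP-positive list.

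The longest spacer, 74.0 kb between Hoxb13 and Hoxb9, held 12 GFP-negative and 11 GFP-positive summits, nearly as many in each list. Leaving out the Hoxb9 promoter, they formed 13 regions, 7 of them common, 4 in the GFP-negative list alone and 2 in the GFP-positive list alone. Of the 13, 3 had their summit at a promoter of the non-coding gene Gm53. The highest −log10 q in the spacer was 9.69 for the GFP-negative and 5.14 for the GFP-positive list. The longest stretch without a peak between the first and last gene was in Hoxb for the GFP-positive list, 26.2 kb over the end of Hoxb4 and most of Hoxb3, and in Hoxc for the GFP-negative list, 25.97 kb over Hoxc8, Hoxc9 and parts of Hoxc5 and Hoxc6. The latter contained 2 GFP-positive summits.

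Of the 120 regions, 51 had their summit in a Hox promoter and 24 more in the promoter of another annotated gene of the spans alone. Of the latter, 11 were common, 12 came from GFP-negative cells alone and 1 from GFP-positive cells alone. They included the promoters of Mir10a, a microRNA gene beside Hoxb4 (common, −log10 q 2.95 and 1.44), Evx2 (common, 3.08 and 1.46), Hoxaas3 (common, 7.42 and 3.46) and Hoxb3os (common, 2.14 and 3.46). GFP-negative-specific ones lay at Hotair, a long non-coding RNA gene of the Hoxc cluster (2.63), at Mir196a-2 (1.45) and at Hotairm1 (1.80). The GFP-positive-specific one was at Gm14396, inside Hoxd10 (2.66).

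The distance from the principal start to the nearest summit was at most 1 kb for 26 of 39 Hox genes in the GFP-negative list (66.7%, interval 50.98 to 79.4), against 60.9% of all protein-coding genes. In the GFP-positive list it was so for 21 (53.8%, interval 38.6 to 68.4), against 52.6%. The median distance was 545 bp in the GFP-negative and 789 bp in the GFP-positive list, both longer than the 346.5 bp and 738.5 bp over all protein-coding genes.

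In base composition the Hox regions were richer in CpG than other DPPA4 regions. Their median GC content was 55.8% and their median observed-to-expected CpG ratio 0.535, against 52.3% and 0.305 over all merged regions. Hoxd regions had the highest medians, 59.8% and 0.595, and 8 CpGs in the summit window against 5 in each of the others. Over all bases under peaks the clusters held 4.72 CpGs per 100 bp, against 1.61 outside peaks in the same spans and 0.826 over the genome. Soft-masked repeats took 9.69% of the bases under peaks and 21.9% of the other bases of the spans. Every one of the 120 Hox regions had a median copy number of 1 for the 31-base words around its summit, as did 82.5% of all regions. A median can hide repeated words, and whether each read over the Hox summits has a single place in the genome was not tested.

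The genes that work with the Hox genes had stronger promoter peaks than the Hox genes themselves. Of 53 listed partners and regulators, 51 had a promoter peak in the GFP-negative list (96.2%, interval 87.2 to 99.0) and 49 in the GFP-positive list (92.5%, interval 82.1 to 97.03). Their median highest −log10 q, with genes lacking a peak at 0, was 18.8 and 9.20, against 3.04 and 2.72 for the Hox genes. Of the 53, 43 were CpG-rich, and their shares and medians lay near those of all CpG-rich promoters, 98.3% and 92.4% with a peak and medians of 19.4 and 10.3. All 20 Polycomb genes, which repress the clusters, all 7 Trithorax genes, which counter that repression, all 9 cofactors of the MEIS, PBX and PKNOX families and all 9 retinoic acid genes had a peak in both lists, as did 59.9% of all and 91.8% of CpG-rich protein-coding genes. Kmt2b, a methyltransferase of the Trithorax group, had a −log10 q of 74.3 and 32.1.

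All listed genes without a peak in both lists were homeobox genes close to the Hox genes in kind or position, though not every such gene was an exception. The caudal genes Cdx1 and Cdx2, which activate central Hox genes in the embryo, had a peak in the GFP-negative list alone (−log10 q of 4.18 and 7.84), and Cdx4 had none. Evx1, next to the Hoxa cluster, had a GFP-negative peak alone (10.4), and Gsx2 a GFP-positive one alone (1.83). Evx2, Gsx1 and Pdx1 had a peak in both lists.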

How the data were processed

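DPPA4 CUT&RUN was measured in 4 libraries, and groups were taken from the sample titles. According to the methods of the study and the submitters' processing notes, the authors trimmed reads with bbduk, aligned them to mm10 with STAR 2.7.10, placing multimapping reads at a best or random position, removed duplicates with Picard 2.26.0 and blacklisted regions, and called peaks with MACS2 2.2.6 on fragments. Whether IgG served as the control is not given in the sources used here. Of the deposited columns, the fold enrichment is a ratio to local background, and the −log10 q is that of the summit. The lowest deposited −log10 q was 1.30, so every listed q-value was at most 0.05. The deposited score was not used. The number of unused per-sample columns was 0. Of 85177 and 54647 deposited peaks, the 83602 and 54642 on chromosomes 1 to 19, X and Y were used.

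Promoters, clusters and merged regions were defined as stated with the results, and fold enrichment and −log10 q were ranked only within a list (mid-rank percentiles). A gene's promoter was CpG-rich when the 1 kb around any annotated start had at least 55% GC and an observed-to-expected CpG ratio of at least 0.6. That start need not be the one with the peak. Scripts used Python 3.11.15, numpy 2.4.6, pandas 2.3.3 and scipy 1.17.1 and were tested on simulated peaks. Named were all genes with a peak in a single list or in none, the 3 strongest promoters per cluster and list, and the strongest region of each class. The members and lists were chosen with earlier results of these data known. Alternatives covered the threshold on −log10 q, the promoter window, the start used, the flanks and the overlap rule. The start of the principal transcript was added as an alternative after seeing the data. The values of 1 Hox gene and 1 partner gene are not reported here, and both genes stay in the counts.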

Additional observations from a re-analysis of the deposited data

How the results depend on the processing

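No paired analysis was possible because each population has 1 pooled list and no result comes from a test, and leaving out a library could not be done for the same reason. The counts depended on the threshold, as fewer peaks are kept by construction. With a −log10 q of at least 5, at least 10, and the 10000 strongest peaks of each list, the Hox peaks went from 108 to 30, 9 and 2 in the GFP-negative list and from 72 to 14, 3 and 2 in the GFP-positive list. Bound promoters went from 87.2% to 35.9%, 10.3% and 0% and from 61.5% to 23.1%, 7.69% and 5.13%. With a −log10 q of at least 5 and 10, the shares over all protein-coding genes were 58.3% and 45.6% in the GFP-negative list. In the GFP-positive list they were 45.1% and 30.1%. The GFP-negative Hox share therefore lay above that of all genes with all listed peaks, and below it at these 2 thresholds. Common regions went from 44.2% to 22.2%, 20% and 0%, and to 29.6% where summits had to lie within 200 bp. The share of summits in promoters went to 0% (of 2 summits) in the GFP-negative list with the 10000 strongest peaks, and from 43.1% to 64.3% and 66.7% in the GFP-positive list with a −log10 q of at least 5 and 10. Flanks of 0 or 50 kb gave 100 to 126 GFP-negative and 68 to 78 GFP-positive peaks, and other promoter definitions 76.9% to 82.1% and 56.4% to 66.7%. With the principal start alone, chosen after seeing the data, 3 genes changed state (Hoxc5, Hoxc6 and Hoxd3), and with the 5' end alone 5 did (Hoxa9, Hoxb2, Hoxb6, Hoxd3 and Hoxd4). Depth behind each list is unknown, so a missing peak is no sign of absent binding.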
